A study of Mus musculus with 16 samples.

Results

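The 29 genes described here make cholesterol, sense it, move it within cells or export it. They were chosen by name from what they are known to do and not by a cut on their values, though earlier results of these data were known. All 29 are among the 24011 gene symbols of the count table. They comprise 8 genes of the mevalonate pathway (Acat2, Hmgcs1, Mvk, Pmvk, Mvd, Idi1, Fdps and Ggps1) and 9 genes of the steps from squalene to cholesterol (Fdft1, Sqle, Lss, Cyp51, Tm7sf2, Nsdhl, Hsd17b7, Ebp and Dhcr7). There are also 4 genes of the sterol regulatory element-binding protein (SREBP) system (Srebf2, Scap, Insig1 and Insig2), 4 of intracellular transport and storage (Stard4, Npc1, Npc2 and Soat1) and 4 exporters (Abca1, Abcg1, Abcg5 and Abcg8). None of the 29 encodes a lipoprotein receptor, and receptors were counted in a separate list. Hmgcs1, the synthase that starts the committed pathway, is listed at 0 in all 16 libraries, so 28 of the 29 had a count in any library. The annotation used for counting is not known, so this 0 is not read as absence of its RNA.

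RNA was sequenced from aorta or liver of wild-type female C57BL/6 mice that had been ovariectomized at 6 to 7 weeks of age with tissue taken 1 week later. Aortas, or tips of the major liver lobe, were kept ex vivo for 4 h at body temperature in DMEM with 10 nM 17b-estradiol (E2) or with ethanol vehicle. All 4 groups (aorta with vehicle, aorta with E2, liver with vehicle, liver with E2) hold 4 libraries each, and every mouse had lost its ovaries, so the controls are E2-deprived as well. The explants are whole tissue pieces, and by the series text each of 2 replicates per condition pooled tissue of 4 mice. By the labels, 8 libraries started from 50 ng of RNA with the Ovation system, and 8 from 600 ng of 1 aorta or liver piece with poly-A selection. Columns of the table carry the suffixes o1, o2, n1 and n2. No label says what the letters mean, so libraries are called o or n here.

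Animal cells build cholesterol from acetyl-CoA through mevalonate, farnesyl diphosphate and squalene, and the liver is the main site of this synthesis and the organ that discards cholesterol into bile. When membranes hold little sterol, the escort protein Scap carries SREBP proteins to the Golgi, where they are cut free to switch on the synthesis genes. Insig proteins hold the escort back when sterol is plentiful. Surplus cholesterol is esterified by enzymes such as Soat1 or passed to apolipoproteins by Abca1 and Abcg1. It may also be secreted into bile by the paired half-transporters Abcg5 and Abcg8. In the vessel wall, uptake and export of cholesterol by smooth muscle cells and macrophages are studied mainly for their part in atherosclerosis.

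Counts summed over genes ran from 3896733 to 19823982 per library. Levels are given as counts per 1e+06 (CPM) on library sizes scaled by TMM. This method gives each library a scaling factor on the assumption that most genes do not differ between libraries. The tissues matched their labels: the summed level of 10 smooth muscle markers was 11060 to 18189 CPM in vehicle aorta and 193 to 503 in vehicle liver, while 16 hepatocyte markers summed to 73.8 to 517 CPM in vehicle aorta and 97997 to 162090 in vehicle liver. The ribosomal transcript Rn45s took 25.7% to 34.5% of the counts of the 4 liver o libraries and at most 6.20% elsewhere. The 29 genes together took 0.0848% to 0.107% of the counts of an aorta library and 0.124% to 0.253% of those of a liver library.

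Start regions of 4 members are shown because the results below turn on them: Abcg5 and Abcg8, which were found together in liver and at a trace in aorta, Tm7sf2, the synthesis gene with the largest difference between the tissues, and Soat1, the member with the largest difference toward aorta. Each runs 5′ to 3′ on the gene's own strand, from 250 bases before the start to 50 bases from it, taken from RefSeq on build GRCm38.p6. The counts were made on mm9, so these coordinates belong to the RefSeq table alone. Capitals mark CCAAT or its reverse complement ATTGG.
Abcg5 (chr17:84682962-84683261, minus strand): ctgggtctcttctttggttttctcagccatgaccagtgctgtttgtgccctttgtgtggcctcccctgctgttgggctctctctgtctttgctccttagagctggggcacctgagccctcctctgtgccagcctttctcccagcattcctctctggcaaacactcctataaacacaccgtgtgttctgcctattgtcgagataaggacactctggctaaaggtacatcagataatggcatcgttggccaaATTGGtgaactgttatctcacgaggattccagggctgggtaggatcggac
Abcg8 (chr17:84682871-84683170, plus strand): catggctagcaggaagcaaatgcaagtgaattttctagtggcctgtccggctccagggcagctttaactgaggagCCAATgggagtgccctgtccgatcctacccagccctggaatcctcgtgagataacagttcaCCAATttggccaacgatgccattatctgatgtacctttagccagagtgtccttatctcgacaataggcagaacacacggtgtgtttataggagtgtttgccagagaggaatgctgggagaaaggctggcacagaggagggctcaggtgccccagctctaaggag
Tm7sf2 (chr19:6067801-6068100, minus strand): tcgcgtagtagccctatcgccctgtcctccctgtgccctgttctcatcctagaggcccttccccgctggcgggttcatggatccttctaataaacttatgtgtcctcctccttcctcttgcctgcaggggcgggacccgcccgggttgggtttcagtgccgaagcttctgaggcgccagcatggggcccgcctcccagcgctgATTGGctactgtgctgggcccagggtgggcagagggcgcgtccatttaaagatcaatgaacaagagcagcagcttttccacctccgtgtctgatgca
Soat1 (chr1:156474279-156474578, minus strand): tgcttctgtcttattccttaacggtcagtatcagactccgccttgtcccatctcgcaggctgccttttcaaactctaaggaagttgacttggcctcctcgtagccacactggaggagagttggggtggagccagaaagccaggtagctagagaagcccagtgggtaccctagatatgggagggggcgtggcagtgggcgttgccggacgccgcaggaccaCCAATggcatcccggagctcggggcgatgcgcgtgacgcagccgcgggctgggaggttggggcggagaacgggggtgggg

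The Abcg5 and Abcg8 windows face away from each other, share 209 bases read on opposite strands, and have their starts 110 bases apart, so the ATTGG of the first is the second CCAAT of the other. RefSeq lists another Abcg8 start 6709 bases from that of Abcg5, whose window shares 0 bases with it. Start regions were found for 23 of the 29 genes, 30 in all, since Abcg8, Dhcr7, Insig2, Pmvk and Scap have more than 1. CCAAT, searched on both strands, was present for 20 of these 23 genes (87.0%) and for 41.1% of all 27025 genes in the RefSeq table. TCACNCCAC, a form of the core of the sterol regulatory element, was present for 1 of 23, Hmgcs1, as TCACCCCAC, and for 1.44% of all genes. The full palindrome of the estrogen response element and the spaced direct repeat of the LXR element were present for 0 of 23, against 0.074% and 0.0148% of all genes. A match or its absence describes these letters in these windows and says nothing of binding.

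Compared with liver, vehicle aorta held less RNA of most cholesterol synthesis genes and of the biliary exporters, and more of Soat1 and Ggps1. Of the 27 members that passed the filter on low counts, 16 were lower in aorta and 2 higher (edgeR quasi-likelihood test over the 8 vehicle libraries, Benjamini-Hochberg adjusted p under 0.05 over 12607 genes and a log2 fold change beyond 1 either way). Of all genes tested, 23.4% were lower and 24.1% higher by this rule. The median log2 fold change, aorta over liver, was −2.29 over the members and 0.05 over all genes, and 25 of the 27 had a value below 0. In whole tissue, fewer cells of a type and less RNA per cell cannot be told apart.

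**Figure D1:**
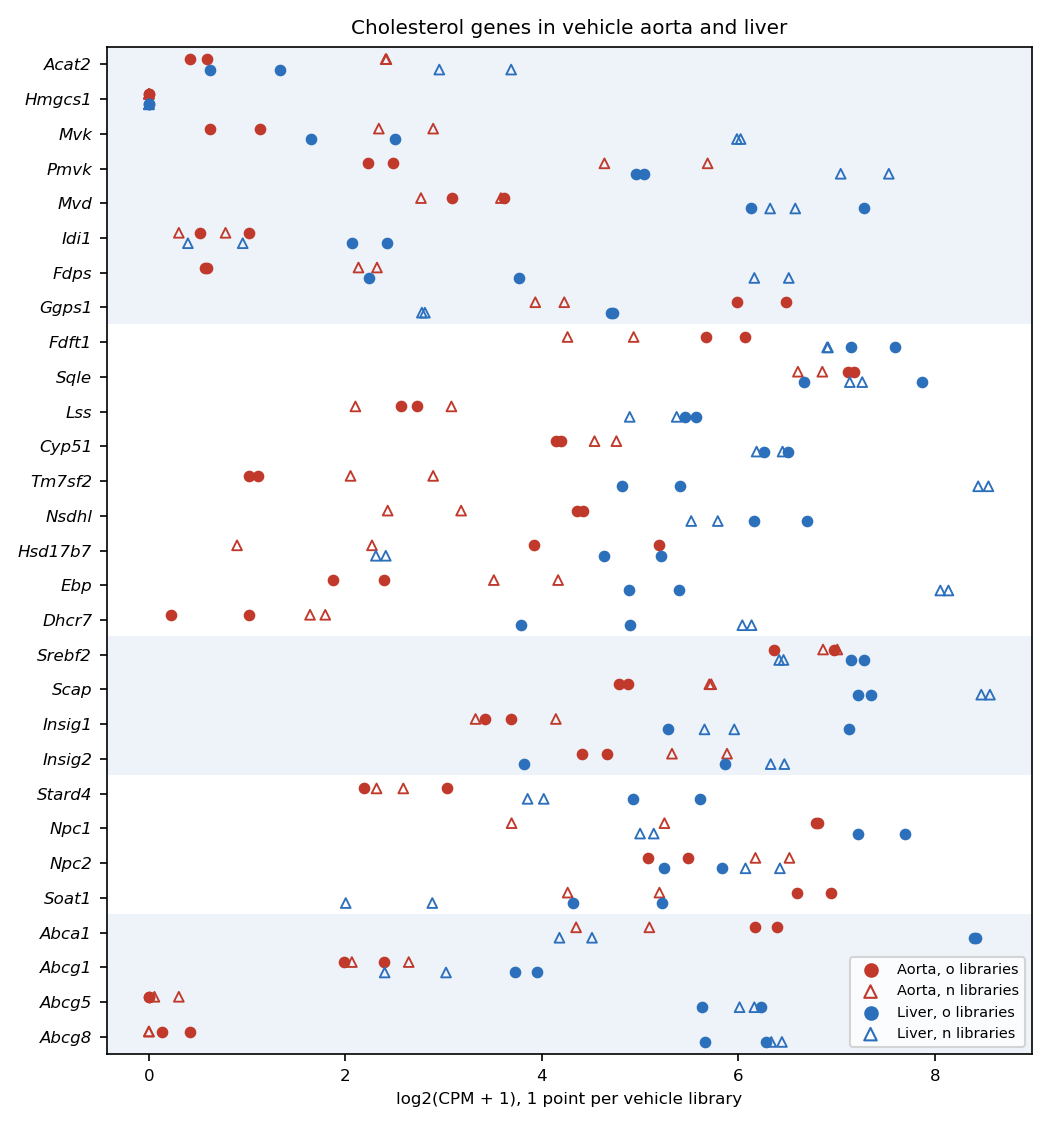
Level of each of the 29 genes on a log2(CPM + 1) scale, 1 point per vehicle library, with aorta in red, liver in blue, circles for o libraries and triangles for n libraries. Shaded bands separate the roles, from the mevalonate pathway at the top to the exporters at the bottom. Abcg5 and Abcg8 lie near 0 in aorta and above 5 in liver, and triangles and circles of 1 tissue stand apart for Mvk, Fdps, Ebp and Tm7sf2.

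In the mevalonate pathway, 4 of the 6 genes tested were lower in aorta and 1 was higher. Fdps, which makes farnesyl diphosphate, had 0.511, 0.485, 3.39 and 4.00 CPM in aorta libraries o1, o2, n1 and n2, and 3.74, 12.6, 70.6 and 90.3 CPM in the liver libraries. The 2 tissues did not overlap within o or within n libraries, although aorta n2 lay above liver o1. Its log2 fold change was −4.34 ± 0.40 (SE, adjusted p = 3.21e-06 by edgeR), which is 20.2-fold.

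Mvd, the decarboxylase that closes the mevalonate steps, was 8.87 ± 2.65 CPM (SD, n = 4) in aorta and 99.1 ± 38.0 in liver, with no overlap and a log2 fold change of −3.46 ± 0.33. The mevalonate kinase gene Mvk and the next kinase gene, Pmvk, differed by −3.07 ± 0.49 and −2.50 ± 0.35. Acat2, which joins acetyl-CoA units in the cytosol, did not pass (−1.25 ± 0.51, adjusted p = 0.0594 by edgeR). Acat2 is a low gene with a close copy beside it in the genome, Acat3, so its counts are uncertain. Idi1, the isomerase, was too low to test over all 8 libraries, at 0.603 ± 0.342 CPM in aorta and 2.21 ± 1.90 in liver.

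Ggps1 was higher in aorta. It makes geranylgeranyl diphosphate, the lipid anchor of many small GTPases, on a branch that leaves the path to cholesterol. Aorta libraries o1, o2, n1 and n2 had 88.5, 62.4, 17.7 and 14.3 CPM and liver libraries 25.4, 25.0, 6.01 and 5.86 CPM. Aorta was above liver within each letter, with overlap across letters, and the log2 fold change was 1.47 ± 0.29 (adjusted p = 0.00114 by edgeR), or 2.78-fold.

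From squalene to cholesterol, 7 of 9 genes were lower in aorta and none was higher. Tm7sf2, a sterol reductase of the late steps, had 1.02, 1.16, 3.15 and 6.43 CPM in aorta libraries o1, o2, n1 and n2 and 27.2, 41.3, 372 and 346 CPM in the liver libraries. Every liver library was above every aorta library. The log2 fold change was −5.73 ± 0.44 (adjusted p = 6.31e-07 by edgeR), or 53.2-fold.

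Dhcr7, the reductase of the last step, had 0.170, 1.02, 2.47 and 2.12 CPM in the aorta libraries and 12.8, 28.9, 64.8 and 69.2 CPM in the liver libraries, again without overlap (−4.99 ± 0.37, or 31.8-fold). Ebp, the sterol isomerase that acts before it, differed by −3.90 ± 0.38. Lss, which closes the sterol rings, and Nsdhl, which takes part in removing methyl groups, differed by −2.90 ± 0.36 and −2.56 ± 0.35. The lanosterol demethylase gene Cyp51 and the squalene synthase gene Fdft1 had the smallest differences of those called, at −2.02 ± 0.28 and −1.95 ± 0.32. Aorta and liver libraries did not overlap for any of these 7 genes. The share of all genes without overlap was not counted, here or for other members.

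Sqle and Hsd17b7 did not pass the test. Sqle encodes squalene epoxidase, a control point of the pathway, and had 144, 138, 115 and 96.4 CPM in aorta libraries o1, o2, n1 and n2 against 101, 232, 152 and 139 CPM in liver. The tissues overlapped, with a log2 fold change of −0.32 ± 0.29 (adjusted p = 0.378 by edgeR). Per kb of transcript, Sqle was the most abundant of the 29 genes in vehicle aorta, at 44.7 CPM per kb, and ranked 5 of 29 in liver at 56.6. Its place at the top in aorta held in o and in n libraries. Hsd17b7, a keto reductase of the late steps, differed by −0.61 ± 0.48 (adjusted p = 0.309 by edgeR).

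Among the other genes highest per kb in vehicle aorta were Srebf2 (22.1 CPM per kb), Npc2 (18.1) and Pmvk (17.3). In vehicle liver they were Tm7sf2 (134 CPM per kb), Ebp (88.2) and Pmvk (78.8). Ranks moved with the library type: in liver n libraries Tm7sf2 ranked 1, while in liver o libraries it ranked 12 and Mvd ranked 1. These levels rest on 1 transcript length per gene.

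**Figure D2:**
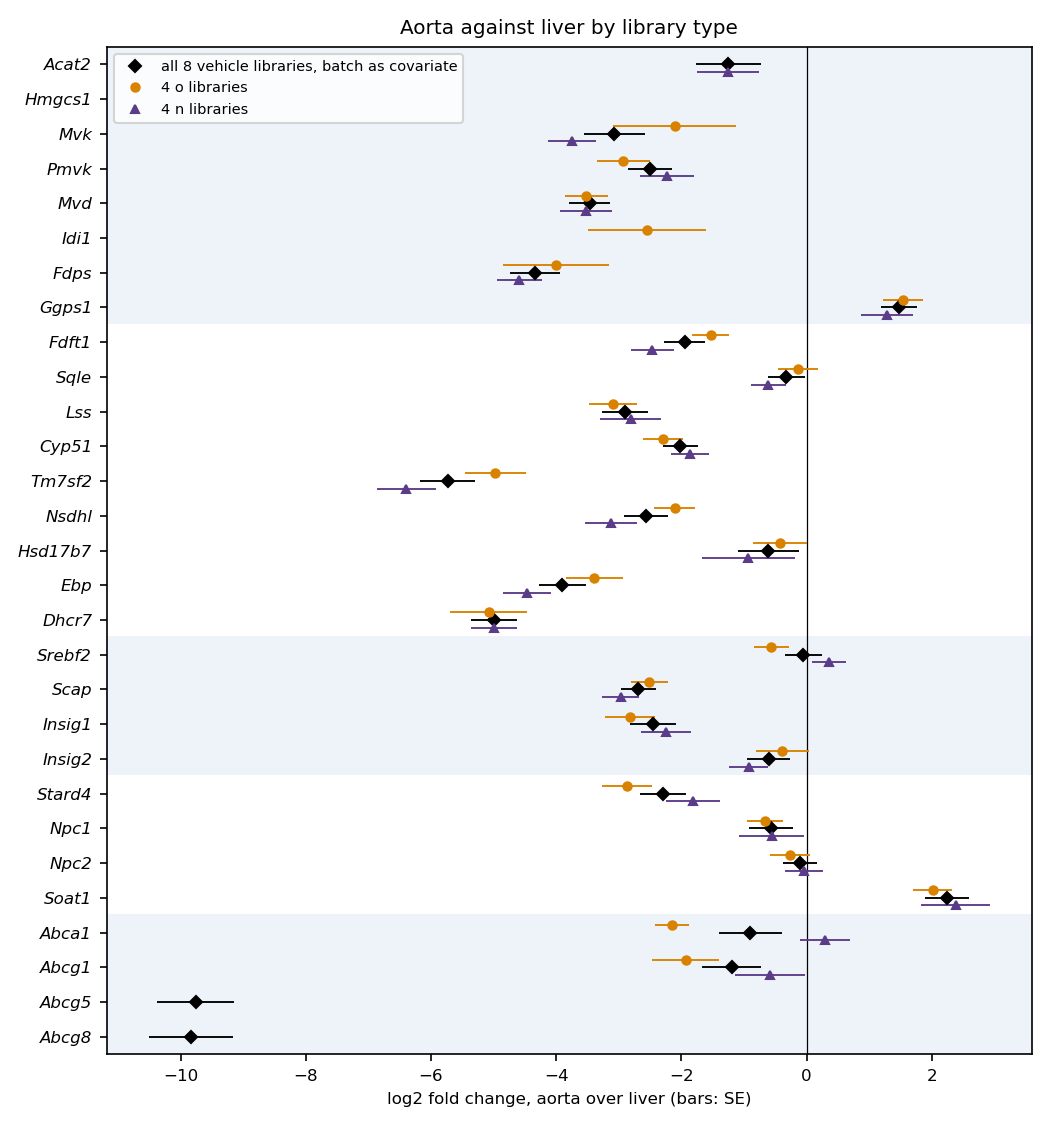
Log2 fold change of aorta over liver in vehicle libraries, with SE, for each member tested: black diamonds are the fit over all 8 libraries, orange circles the 4 o libraries and purple triangles the 4 n libraries. Most members lie left of 0 in all fits, Soat1 and Ggps1 lie right of 0, and Abca1 lies at −2.15 in o libraries and 0.29 in n libraries. Separate o and n values are left out for Abcg5 and Abcg8, whose counts were 0 in both aorta libraries of 1 letter.

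Of the SREBP genes, Scap and Insig1 were lower in aorta, and Srebf2 and Insig2 did not pass. Scap, the escort, was 39.4 ± 13.9 CPM (SD, n = 4) in aorta and 260 ± 122 in liver (log2 fold change −2.69 ± 0.28, adjusted p = 7.91e-06 by edgeR). Insig1 had 9.70, 11.8, 16.7 and 9.02 CPM in aorta libraries o1, o2, n1 and n2 and 37.9, 138, 49.4 and 61.1 CPM in liver. The lowest liver library was above the highest aorta library, and the log2 fold change was −2.45 ± 0.37 (adjusted p = 0.000159 by edgeR).

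Srebf2, which encodes the SREBP that drives synthesis genes most strongly, was at a like level in both tissues by its means. The values were 124, 81.3, 128 and 115 CPM in aorta and 155, 141, 84.3 and 87.0 CPM in liver. Liver was above aorta in o libraries and aorta above liver in n libraries, with no overlap within either letter. The log2 fold change was −0.05 ± 0.30 (adjusted p = 0.901 by edgeR) over all 8 vehicle libraries, −0.56 ± 0.28 in o libraries and 0.36 ± 0.28 in n libraries. Its sign was also above 0 without Rn45s (0.08) and with no filter on low counts (0.02), so no direction is given for it. Insig2 differed by −0.60 ± 0.34 (adjusted p = 0.160 by edgeR).

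In transport and storage the genes went separate ways. Soat1, which esterifies cholesterol for storage in droplets, was higher in aorta, with 95.5, 122, 35.7 and 18.2 CPM in libraries o1, o2, n1 and n2 against 18.9, 36.4, 6.38 and 3.01 CPM in liver. Aorta was above liver within each letter, and the log2 fold change was 2.24 ± 0.36 (adjusted p = 0.000254 by edgeR), or 4.73-fold. Soat2, listed with sterol breakdown and esterification below, went the other way (−6.48 ± 0.53, adjusted p = 1.22e-06 by edgeR). The summed level of 10 macrophage markers was 133 to 277 CPM in vehicle aorta and 298 to 1405 in vehicle liver, that of 11 adipocyte markers 3272 to 4544 and 77.7 to 283. The part of these cells in the Soat1 difference was not tested.

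Stard4, a sterol carrier between membranes, was lower in aorta at 4.94 ± 1.61 CPM (SD, n = 4) against 26.4 ± 15.9 (−2.29 ± 0.37, adjusted p = 0.000308 by edgeR), with no overlap. Npc1 and Npc2, the proteins that hand cholesterol out of lysosomes, did not pass. Npc2 ran from 32.9 to 90.7 CPM in aorta and from 36.8 to 84.7 in liver, a log2 fold change of −0.10 ± 0.27, and that of Npc1 was −0.56 ± 0.35. Both tissues overlapped for Npc2 within each letter.

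Among exporters, Abcg5 and Abcg8 were abundant in liver and at a trace in aorta. Abcg5 had 73.9, 48.6, 70.6 and 63.5 CPM in liver libraries o1, o2, n1 and n2, and 0, 0, 0.0398 and 0.235 CPM in the aorta libraries. Abcg8 had 76.6, 49.6, 86.0 and 79.7 CPM in liver and 0.341, 0.0971, 0 and 0 CPM in aorta. Over the vehicle libraries this is 4 aorta counts against 1532 liver counts of Abcg5, and 4 against 1736 of Abcg8.

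Scaled to the pooled library sizes, the aorta level was 0.102% of the liver level for Abcg5 (exact 95% Poisson interval 0.0279% to 0.262%, counting error only) and 0.0904% for Abcg8 (0.0246% to 0.231%). Over the same pooled libraries, RNAs of proteins that hepatocytes secrete stood at 0.0966% (Alb), 0.0745% (Ttr), 0.119% (Ahsg) and 0.127% (Apob) of their liver levels. By letter the share of Alb differed, with Alb at 0.167% in o and 0.0491% in n libraries. Abcg5 had 0 counts in o libraries (upper 95% bound 0.251%) and stood at 0.158% in n libraries, while Abcg8 stood at 0.265% in o libraries and had 0 counts in n libraries (upper 95% bound 0.118%). Hepatocyte markers summed to 517 CPM in vehicle aorta o1 and to 73.8 to 105 CPM in the other 3. Whether the 4 aorta counts of each transporter came from aorta cells was not tested. The fitted log2 fold changes were −9.76 and −9.84 (adjusted p = 1.35e-07 and 2.58e-07 by edgeR), and they depend on the prior count, since 2 aorta libraries had no count of each gene.

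Abca1 and Abcg1, which load cholesterol onto apolipoproteins and high-density lipoprotein, did not pass over all 8 vehicle libraries (−0.90 ± 0.50, adjusted p = 0.154, and −1.20 ± 0.48, adjusted p = 0.0524, by edgeR). Abca1 had 82.9 and 70.9 CPM in aorta o libraries and 335 and 341 in liver o libraries, but 33.1 and 19.4 in aorta n libraries and 21.8 and 17.1 in liver n libraries. Liver was thus above aorta in o libraries, while the tissues overlapped in n libraries. In o libraries alone the log2 fold changes of Abca1 and Abcg1 were −2.15 ± 0.28 and −1.93 ± 0.53 (adjusted p = 1.07e-05 and 0.00717 by edgeR), and in n libraries alone 0.29 ± 0.40 and −0.58 ± 0.55 (adjusted p = 0.573 and 0.409). No single tissue difference can therefore be given for Abca1. Tissue fits of 1 letter leave 1 residual degree of freedom in o libraries and 2 in n libraries. Their p-values and calls thus lean on spread shared across genes.

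Within each letter the count of calls moved little, with 2 higher and 18 lower in o libraries and 2 higher and 16 lower in n libraries. Mvk missed the threshold in o libraries alone (−2.11 ± 0.98, adjusted p = 0.0873 by edgeR). In the 8 E2 libraries, the same comparison gave 2 higher and 18 lower. The o, n and E2 fits tested 12473, 13339 and 13061 genes, so the shares of the main fit do not carry over. Shares of all genes called in these fits are not given here, and the counts are not read against them.

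Neighbouring pathway genes were read from 5 lists chosen by function, against the 23.4% of all genes called lower and 24.1% called higher. Of 7 other synthesis genes tested, 5 were lower in aorta and 0 higher, among them Sc5d (log2 fold change −3.24), a sterol desaturase, and Acss2 (−3.16), which makes acetyl-CoA from acetate. The remaining gene of that list, Idi2, is listed at 0 in all 16 libraries. Of 9 genes that process SREBPs or sense sterols, 2 were lower, Srebf1 (−2.84) and Paqr3 (−2.12), and 1 was higher, Trib1 (1.42), which is no more than the shares over all genes. Of 10 genes listed as LXR receptors and targets, 5 were lower, led by Abcb11 (−10.76) and the LXR gene Nr1h3 (−4.52). Abcb11, the bile salt export pump, is known mainly as a target of the bile acid receptor, and it had 16 counts over the 4 vehicle aorta libraries against 13756 in liver.

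Uptake and traffic genes were mixed. In aorta 4 of 18 were higher, near the share over all genes, led by Cav1 (4.50), the coat protein of caveolae, and the lipoprotein receptor gene Vldlr (3.34), and 7 lower, led by Stard5 (−2.88) and the scavenger receptor gene Msr1 (−2.45). Of 9 genes of sterol breakdown and esterification, 8 were lower, including Cyp7a1 (−12.04), the rate-limiting enzyme of bile acid synthesis, and Lcat (−7.37), which esterifies plasma cholesterol. Cyp7a1 had 1 count over the 4 vehicle aorta libraries against 3915 in liver, so its fitted value depends on the prior count. The exception was Ch25h (3.05), which makes an oxysterol and was higher.

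E2 for 4 h changed no member past the threshold in either tissue. In aorta 26 members were tested and 0 were called, as were 0% of all 13698 genes, and 0 of the 26 had an unadjusted p under 0.05, against 3.61% of all genes (edgeR). In liver 0 of 27 were called, as were 0% of all 11726 genes, and 2 had an unadjusted p under 0.05, against 4.28% of all genes. DESeq2 called 0 members in either tissue as well, and over all genes 20 higher and 4 lower in aorta. The main edgeR fit pairs only the o libraries by suffix. With the suffix as replicate block, which pairs n libraries too, 0 members were called. That fit did call some genes in aorta, with counts given in the last section. The median log2 difference, E2 over vehicle, was 0.08 over the aorta members (all genes −0.01) and 0.11 over the liver members (all genes −0.01), with values above 0 for 16 of 26 and 16 of 27.

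**Figure D3:**
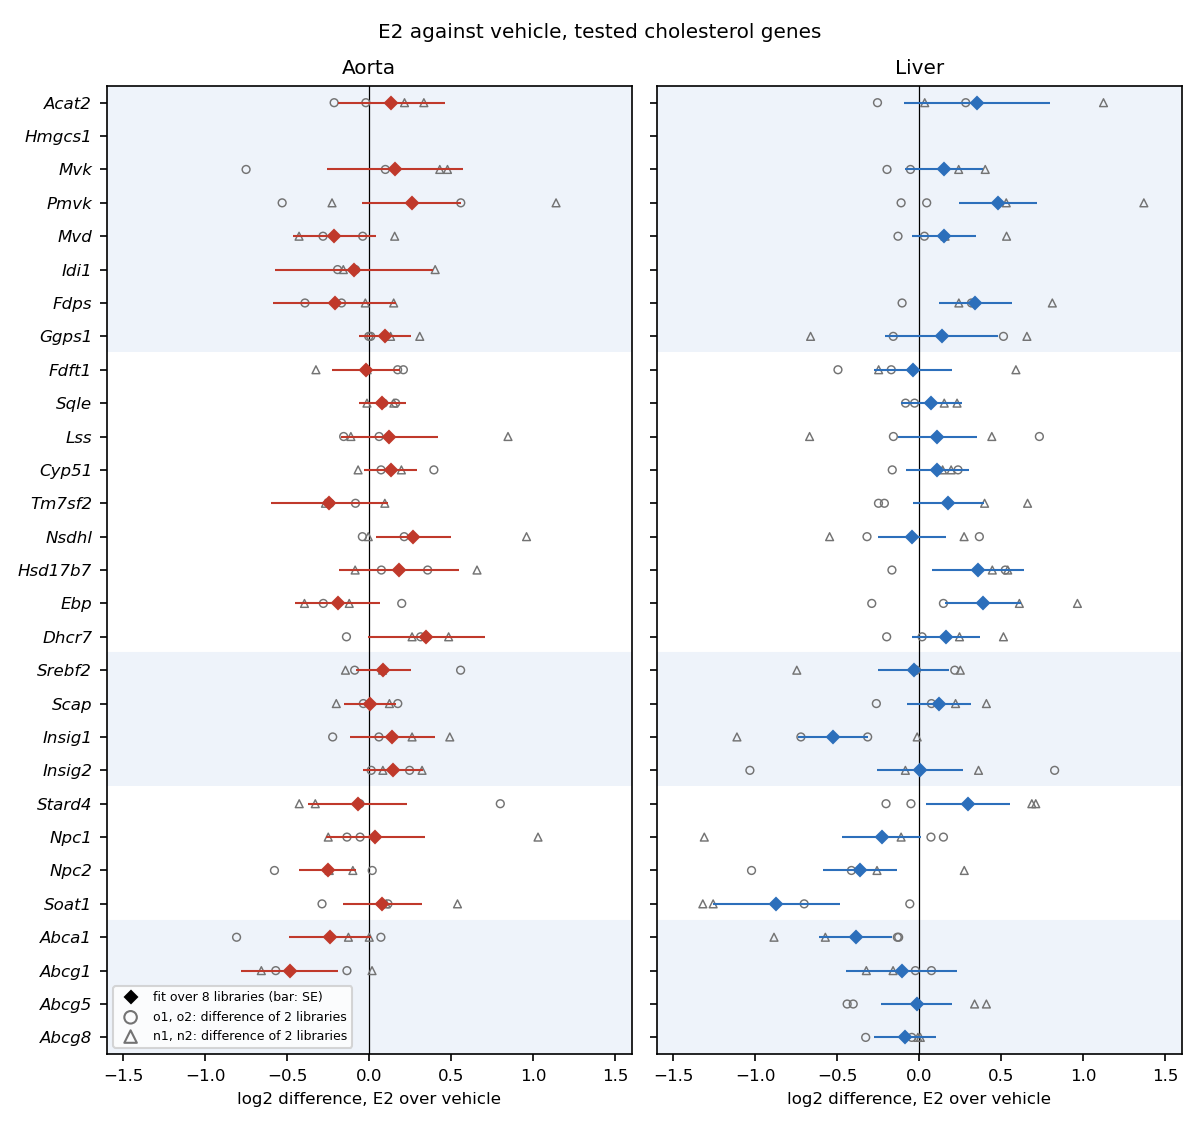
Log2 difference of E2 over vehicle in aorta (left) and liver (right) for each member tested: diamonds with SE bars are the fit over 8 libraries, and open circles (o) and triangles (n) are differences of log2(CPM + 1) between the 2 libraries of a suffix. Aorta fits lie between −0.49 and 0.35, and in liver Insig1, Soat1 and Abca1 have all 4 suffixes below 0. Suffixes match liver libraries by name only, although the fit held o1 and o2 as separate batch levels. The share of all genes with 4 equal signs was not counted.

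In aorta the fitted values ran from −0.49 to 0.35. Those with the smallest p were Abcg1 (−0.49 ± 0.30, unadjusted p = 0.134 by edgeR), Npc2 (−0.25 ± 0.17, unadjusted p = 0.179), Nsdhl (0.27 ± 0.23, unadjusted p = 0.264) and Dhcr7 (0.35 ± 0.36, unadjusted p = 0.355), all with an adjusted p of 1. Abcg1 had 4.26, 2.96, 3.19 and 5.25 CPM with vehicle and 3.78, 1.67, 3.24 and 2.96 CPM with E2 in o1, o2, n1 and n2. These ranges overlapped, and 3 of 4 suffixes had the lower value with E2. All 4 SREBP genes had values above 0, from 0.01 to 0.15, and Insig2 was the only member higher with E2 in 4 of 4 suffixes. The share of all genes with equal signs in 4 suffixes was not counted. The summed macrophage markers were 133 to 277 CPM with vehicle and 114 to 180 with E2, with 6 of the 7 tested below 0. All lymphocyte and hepatocyte markers tested in aorta were below 0 as well. The part of any of these cells in the Abcg1 value was not tested.

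In liver the 2 members with an unadjusted p under 0.05 were Insig1 and Soat1, both with lower values under E2. Insig1 had 37.9, 138, 49.4 and 61.1 CPM with vehicle and 30.3, 83.4, 48.9 and 27.7 CPM with E2 in o1, o2, n1 and n2. It was lower with E2 in 4 of 4 suffixes while the groups overlapped, and n1 hardly differed. The log2 difference was −0.53 ± 0.21 (unadjusted p = 0.0259, adjusted p = 0.939 by edgeR). Counts of suffixes in liver, here and below, match libraries by name only, since a pairing by suffix was not borne out there. The fit itself held o1 and o2 as separate batch levels. It thus compared vehicle and E2 within o1 and within o2, and over n1 and n2 together.

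Soat1 had 18.9, 36.4, 6.38 and 3.01 CPM in liver with vehicle and 18.2, 21.96, 1.96 and 0.676 CPM with E2, lower in 4 of 4 suffixes. Its log2 difference was −0.87 ± 0.39 (unadjusted p = 0.0407, adjusted p = 0.939 by edgeR), with −0.41 ± 0.36 in o libraries and −1.72 ± 0.69 in n libraries alone. Abca1 was also lower in 4 of 4 suffixes (−0.39 ± 0.22, unadjusted p = 0.0993 by edgeR), from 335, 341, 21.8 and 17.1 CPM to 307, 310, 14.3 and 8.79 CPM. In liver 3 members (Insig1, Soat1 and Abca1) were lower in 4 of 4 suffixes and 0 were higher. The share of all genes with equal signs was not counted, so this is not read as a result about the members. Of 10 macrophage markers in liver, 10 had values below 0 with a median of −0.32, and their sum ran from 298 to 1405 CPM with vehicle and from 237 to 1129 with E2, with none of the 10 at 0 in all libraries of a group. Lower values were not particular to macrophage markers: all lymphocyte markers tested in liver were below 0, and all endothelial markers but Egfl7 (0.16). The part of any of these cells in the Soat1 and Abca1 values was not tested.

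Pmvk leaned the other way in liver (0.48 ± 0.24, unadjusted p = 0.0633 by edgeR), with 30.2, 31.8, 131 and 184 CPM with vehicle and 31.1, 29.3, 339 and 266 CPM with E2. The difference lay in n libraries (0.93 ± 0.24) and was −0.02 ± 0.32 in o libraries. The fitted values of all 6 mevalonate genes tested in liver were above 0, from 0.14 to 0.48, and those of all 4 exporters below 0, from −0.39 to −0.02, and none passed. The signs did not hold in every suffix pair: all 6 mevalonate genes had a lower value with E2 in o2, and Abcg5 was higher with E2 in n1 and n2 (0.41 and 0.34 on the log2(CPM + 1) scale). Over the members tested the median pair difference in liver was −0.03 in o1, −0.16 in o2, 0.36 in n1 and 0.16 in n2. The summed hepatocyte markers split by letter too: they were 162090 and 142320 CPM with vehicle and 258600 and 239890 CPM with E2 in n1 and n2, but 97997 and 138570 against 94950 and 92376 CPM in o1 and o2. The part of cell makeup was not tested.

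**Figure D4:**
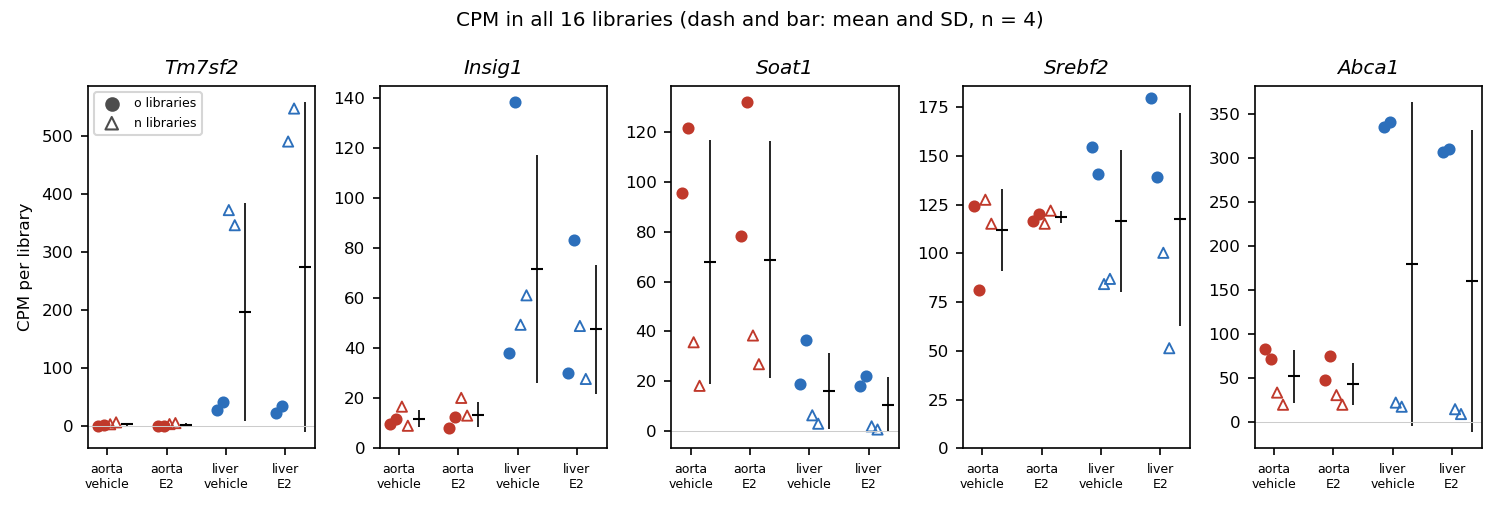
CPM of 5 members in each of the 16 libraries, with filled circles for o, open triangles for n, and mean and SD (n = 4) beside each group. For Tm7sf2, Soat1 and Abca1 the letters stand apart by more than vehicle and E2 do. In fold the gap is widest for Abca1 in liver, at 307 to 341 CPM in o libraries and 8.79 to 21.8 CPM in n libraries. The letters overlap for Insig1 in vehicle aorta and vehicle liver, and for Srebf2 in vehicle aorta.

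The E2 effect in aorta minus that in liver was tested directly as an interaction over all 16 libraries. None of 28 members was called, nor any of 14190 genes (0%), and 0 members had an unadjusted p under 0.05, against 5.36% of all genes (edgeR). DESeq2 called 0 members and, over all genes, 6 higher and 6 lower. The smallest p-values belonged to Soat1 (0.92 ± 0.45, unadjusted p = 0.0592), Insig1 (0.68 ± 0.36, unadjusted p = 0.0775), Ebp (−0.55 ± 0.34, unadjusted p = 0.126) and Abcg5 (1.06 ± 0.83, unadjusted p = 0.216). The value of Abcg5 rests on 4 aorta counts with vehicle and 11 with E2, in libraries where the 16 hepatocyte markers summed to 73.8 to 517 and 43.7 to 241 CPM. Of the 5 neighbouring lists 0 genes were called for E2 in aorta, in liver or in the interaction. The only genes of those lists with an unadjusted p under 0.05 for E2 within a tissue were Ch25h in aorta (−0.86 ± 0.21, unadjusted p = 0.00277) and Mbtps2 (−0.83 ± 0.36, unadjusted p = 0.0347) and Mylip (−0.95 ± 0.34, unadjusted p = 0.0140) in liver.

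Differences between library types passed the test for many members, where E2 passed for none. In aorta, 9 of 26 members were higher and 7 lower in n than in o libraries, against 32.5% and 27% of all 14637 genes (edgeR, adjusted p under 0.05 and log2 fold change beyond 1). In liver, 9 of 28 were higher and 8 lower, against 33% and 35.1% of 12752 genes, so the shares of members called were near those of all genes in all 4 counts. What set o and n apart cannot be told from the labels.

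Members higher in n libraries of both tissues were Acat2, Fdps, Pmvk, Mvk, Tm7sf2, Dhcr7, Ebp and Insig2. The first 4 belong to the mevalonate pathway, and Mvk, for example, differed by a log2 fold change of 3.16 ± 0.44 in aorta and 4.28 ± 0.32 in liver, and Fdps by 3.19 ± 0.43 and 3.39 ± 0.34. Npc2 was called in aorta only (1.02 ± 0.21, with 0.98 ± 0.25 in liver), and Scap in liver only (1.33 ± 0.23, with 0.75 ± 0.19 in aorta), and neither passed the test of the difference between tissues below. The mevalonate genes went both ways: of the 7 tested in each tissue, Acat2, Fdps, Pmvk and Mvk were higher in n libraries, while Mvd, Idi1 and Ggps1 had values below 0, with Ggps1 called lower at −2.22 ± 0.20 in aorta and −2.24 ± 0.36 in liver.

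Members lower in n libraries of both tissues were Hsd17b7, Ggps1, Npc1, Soat1 and Abca1. The log2 fold changes of Hsd17b7 were −3.40 ± 0.45 in aorta and −2.73 ± 0.31 in liver, and those of Soat1 −1.98 ± 0.30 and −3.18 ± 0.42. Nsdhl (−1.59) and Fdft1 (−1.58) were also lower in aorta, and Abcg1 (−1.48), Stard4 (−1.10) and Srebf2 (−1.03) in liver. Members with short transcripts tended to be higher in n libraries and those with long transcripts lower. Pmvk, at 1.19 kb the shortest transcript, and Abca1, at 10.26 kb the longest, lie at opposite ends in the plot of library type against length.

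Across members, the log2 fold change of n over o libraries and log2 transcript length had a Pearson r of −0.70 and a Spearman rho of −0.67 in aorta (26 genes), and −0.82 and −0.80 in liver (28 genes). Over all tested genes with a length the Pearson r was −0.34 and −0.55. With the GC content of the transcript, Pearson r was 0.57 over the members in each tissue and 0.61 and 0.56 over all genes. These are descriptions across genes that share the same libraries, and genes are not independent replicates.

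**Figure D5:**
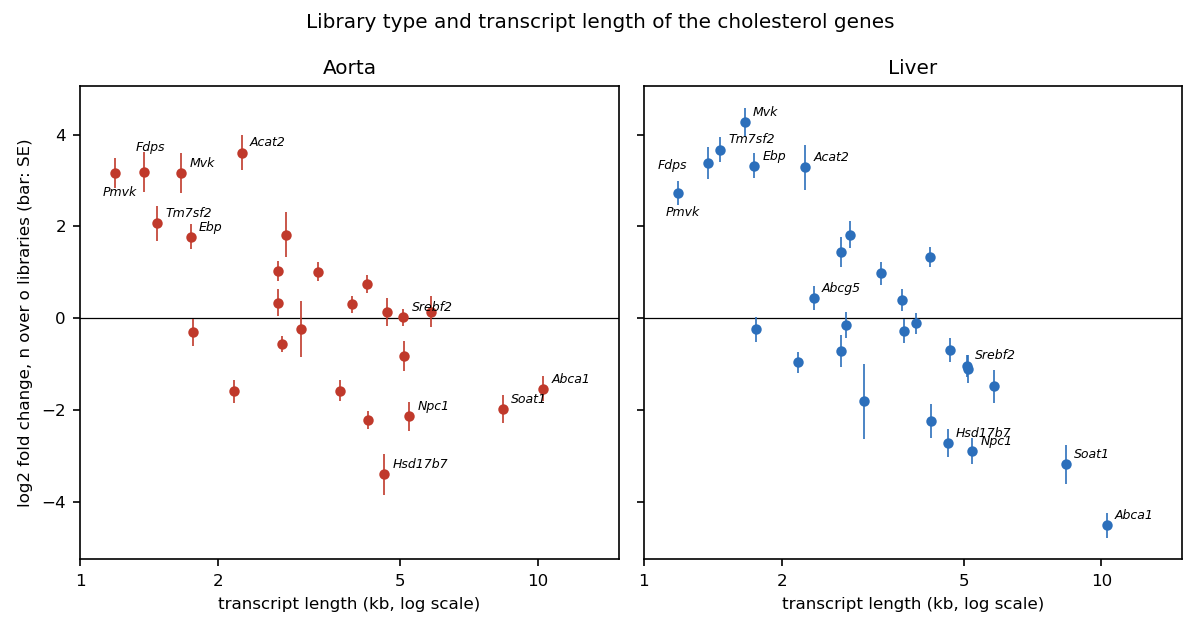
Log2 fold change of n over o libraries (SE bars) against transcript length in kb on a log scale, for the members tested in aorta (left, 26 genes) and liver (right, 28 genes). Short transcripts such as Pmvk and Fdps lie above 2 in both tissues, and Soat1 and Abca1, the longest, lie below −1.5, with Abca1 at −1.54 in aorta and −4.51 in liver.

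For 6 members the difference between n and o libraries itself differed between the tissues (interaction over all 16 libraries, edgeR, adjusted p under 0.05), 3 higher in aorta and 3 lower, against 18.8% and 8.79% of all 14934 genes. The median of this difference over all genes was 0.43. Abca1 was the largest, at 3 ± 0.37 (adjusted p = 7.68e-05), followed by Abcg1 at 1.63 ± 0.50 (adjusted p = 0.0205) and Srebf2 at 1.06 ± 0.32 (adjusted p = 0.0200). Srebf2 missed the threshold with DESeq2's size factors (0.79, adjusted p = 0.0582), which brought the median of all genes to 0.15, and without the vehicle aorta library o2 (0.93).

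Tm7sf2 (−1.57 ± 0.42, adjusted p = 0.0100), Ebp (−1.51 ± 0.37, adjusted p = 0.00557) and Fdft1 (−1.27 ± 0.35, adjusted p = 0.0116) differed the other way by edgeR. Ebp, for instance, had 4.26 and 2.67 CPM in vehicle aorta o libraries and 10.4 and 16.9 in n libraries, while vehicle liver had 28.6 and 40.9 CPM in o and 280 and 265 in n libraries. The size of the tissue difference thus depended on the library type for these 6 genes. Tm7sf2, Ebp and Fdft1 were lower in aorta in both types.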

How the data were processed

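The 16 libraries (4 each of aorta and liver with vehicle or E2) were read from 1 deposited table of whole-read totals for each symbol. The submitters' processing notes name Bowtie 0.12.5 with build mm9, HTSeq 0.4.5p7 and edgeR 3.4.2. The sources used here do not give the annotation, strand setting or read filters, and without strand reads of overlapping or antisense genes cannot be told apart. The deposited values are whole numbers held under the unit of estimated counts, as each column ends in a percentage, so rounding changed nothing. The 8 lines that name no gene stayed out of library sizes and tests. Reads in no gene were 48.0% to 75.2% of a library and ambiguous reads 0.0452% to 0.523%. Columns were matched to groups by tissue and treatment in their names, since no label explains the suffix.

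Tests used edgeR 4.0.16 under R 4.3.3 (glmQLFit and glmQLFTest, TMM, filterByExpr with a minimum count of 10 and a minimum total of 15), with Benjamini-Hochberg adjustment over all genes and a batch covariate of 3 levels (o1, o2 and n), or treatment where library types were compared. SE was taken from the log2 fold change and its F statistic (size over root F). P-values measure the spread between libraries, which may be partly technical. Scripts were tested on simulated data. Alternatives were DESeq2 1.42.0, its size factors, no filter, each letter alone, a replicate block, leaving out each library, the E2 libraries for the tissue comparison, and leaving out Rn45s. Transcript lengths came from GENCODE M21 and start regions from RefSeq (GRCm38.p6). All 29 members were described for the tissue comparison. For E2, members with an unadjusted p under 0.05, or the 4 of smallest p, were named, with members of equal sign in 4 of 4 suffixes named after their values were seen. For library type, called members were named. Of other lists at most 2 called genes per direction were named, beside Soat2, Ch25h, Mbtps2 and Mylip, named after their values were seen. The members and lists were chosen with earlier results of these data known.

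Pairing by suffix was checked by correlating, across genes, the deviations of the vehicle and E2 library of a suffix from their group means. Over o1, o2, n1 and n2 this gave r = 0.907, 0.927, 0.92 and 0.889 in aorta, and in liver 0.895, 0.842, 0.901 and 0.863. These values carry the difference between o and n libraries. With the mean of each letter removed, r was 0.502 (o) and 0.433 (n) in aorta and 0.254 and −0.047 in liver, so the suffix was taken to pair the aorta libraries at most. The main E2 fits did not follow this split. In both tissues they held o1 and o2 apart and n1 and n2 together, so they paired o libraries by suffix and left n libraries unpaired. The replicate block paired all libraries by suffix.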

Additional observations from a re-analysis of the deposited data

Results flagged for a closer look

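In groups of 4 libraries, 112 combinations of member and group were examined for a library far from the other 3. Chance gives about 1 in 20 only where all 4 values come from a single normal distribution. Each group mixes o and n libraries, which differ for many members, so that rate does not apply here. The number flagged therefore says nothing of library quality. Of the 112 combinations, 2 were flagged. Stard4 in liver with E2 was 46.0 CPM in library o2, with the others at 22.6 to 25.4 CPM, and liver with vehicle also had its highest Stard4 value in o2, at 47.7 CPM. Abcg5 in vehicle aorta was 0.235 CPM in n2, which is 3 counts, with the others at 0 to 0.0398 CPM.

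The log2 difference between n and o libraries was not the same in aorta and liver by a direct test for Abca1 (3, aorta minus liver), Abcg1 (1.63), Srebf2 (1.06), Fdft1 (−1.27), Ebp (−1.51) and Tm7sf2 (−1.57). Library type and whatever else differed between the o and n libraries cannot be told apart.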

How the results depend on the processing

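Depth limits the low members most: Idi1 was not tested between the tissues, and Abcg5 and Abcg8 had 4 counts each in vehicle aorta. Counts of members called between aorta and liver stayed at 2 higher and 16 to 18 lower under every alternative run. The direction turned for Srebf2, Abca1 and Npc2, of which none was called in the test over all 8 vehicle libraries. Srebf2 gave 0.015 with no filter on low counts, 0.36 in n libraries alone, 0.18 in E2 libraries, 0.084 without Rn45s, and −0.15 to 0.31 when a library was left out. Abca1 gave 0.29 in n libraries alone. Npc2 gave 0.12 in E2 libraries, 0.033 without Rn45s and −0.21 to 0.088 when a library was left out. The median of all genes moved by 0.11 with E2 libraries, by 0.14 without Rn45s and by −0.15 in o libraries alone. For E2, 0 members were called under any alternative, while counts over all genes moved. In aorta they were 20 higher and 4 lower with DESeq2, and 16 and 17 in o libraries alone (1 residual degree of freedom). With the suffix as replicate block, the paired fit, they were 11 and 1. When a library was left out they were 0 to 12 higher and 0 to 5 lower, with 12 and 5 reached without the vehicle aorta library n2. In liver they were 4 higher and 2 lower with no filter, 3 and 2 in o libraries, 1 higher in n libraries, and 0 to 1 higher with a library left out (1 without o2 of vehicle or of E2), and Pmvk gave −0.025 in o libraries. For the interaction they were 6 higher and 6 lower with DESeq2, 2 lower in o libraries, 1 lower with the block, and 0 to 4 lower with a library left out (4 without vehicle aorta n1, 1 without vehicle aorta n2 or vehicle liver n2), while Ebp gave 0.060 in o libraries and Abcg5 −0.29 in n libraries. The block changed no call of a member in the tissue and E2 comparisons, for which it was run. For the library type difference between the tissues, DESeq2's size factors gave 5 members lower, adding Nsdhl and Scap, and 2 higher. Leaving out a library gave 2 to 7 higher, with 7 without the vehicle aorta library n2 and 5 without the vehicle liver library o1. The cause of these changes was not tested. The added alternatives for library type were chosen after seeing the data. Shares of all genes called under the alternatives are not given here for the tissue comparison or for library type.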
